A study of Capsicum annuum with 5 samples.

Results

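The open flower is represented by 1 of 5 small RNA libraries of pepper (Capsicum annuum, inbred line Zunla 1), and its annotated microRNAs (miRNAs) were compared with those of developing roots, developing stems, mature leaves and fruits, 1 library each. Roots, stems and leaves came from soil-grown plants at 22 °C with 16 h of light, taken at full bloom. The flowers were fully open, from mature plants whose growth temperature and light the labels do not give. The fruit library is labelled mature green, but the series text describes fruit turning red 30 days after pollination. All mature sequences of the deposited annotation were taken, 155 lines typed as 5′ arm and 159 as 3′ arm. Each distinct sequence was counted 1 time per family, which left 245 sequences in 64 families, 35 with established miRNA numbers and 29 candidates named miRC. No library has a replicate, and the labels do not say how many plants went into it. No difference between tissues therefore has a test, and every interval below is a 95% interval for counting error only. No measurement in the files checks the identity of the organ.

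Plant miRNAs are cut from hairpin precursors and guide ARGONAUTE proteins to matching mRNAs. One arm of the hairpin usually acts as the guide and the other, the passenger, is mostly degraded. In flowering plants miR156 and miR172 mark opposite sides of the change from juvenile to adult growth and flowering: miR156 silences SPL transcription factors, and miR172 silences AP2-like factors. Within the flower, miR160 and miR167 act on auxin response factors, miR164 on NAC factors that set organ boundaries, miR166 on class III HD-ZIP factors that set organ polarity, and miR169 on NF-YA subunits.

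The sequences on which the flower profile turns are given here in the 5′ to 3′ direction from the deposited annotation, with T for U and the seed (bases 2 to 8) in capitals. They are the 5 with most flower tags, the miR156, miR172, miR390 and miR482 forms whose place within the family differed in flower, and sequences of families highest in flower or listed there alone.
miR156a-5p, miR156b-5p and miR156c-5p: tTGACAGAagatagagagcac
miR156h-5p: tTGACAGAagagagtgagcat
miR156d-5p, miR156e-5p and miR156f-5p: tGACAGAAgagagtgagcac
miR166a-3p to miR166g-3p: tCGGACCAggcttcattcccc
miR166h-3p and miR166i-3p: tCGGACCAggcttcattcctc
miR168a-5p: tCGCTTGGtgcaggtcgggac
miR167a-5p to miR167d-5p: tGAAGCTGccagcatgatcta
miR172a-3p to miR172d-3p: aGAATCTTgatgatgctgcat
miR172e-3p and miR172f-3p: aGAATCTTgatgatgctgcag
miR390a-5p: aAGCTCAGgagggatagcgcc
miR390b-5p: aAGCTCAGgagggatagcacc
miR482d-3p: cATCGATGacattggcaaggag
miR482a-3p: tTTCCAATtccacccattccta
miR482b-3p: tCTTGCCTacaccgcccatgcc
miR160a-5p: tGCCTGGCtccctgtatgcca
miR160a-3p: gCGTATGAggagccaagcata
miR394a: tTGGCATTctgtctacctcc
miR395a and 9 further miR395 hairpins: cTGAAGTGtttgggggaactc
miRC18-5p: aGGAAGGAactccacgtcattgc
miRC5-5p: tCTGAACTaaatttgagcgta

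The flower library listed 678695 tags with each sequence counted 1 time, against 231560 in root, 318815 in stem, 542531 in leaf and 311417 in fruit. These sums cover annotated miRNAs, and the sequencing depth is unknown. Values are given as percent of the listed tags or as normalised tags, meaning tags per 1000000 listed tags of the library. The flower listed 45 families and 147 sequences, more sequences than any other tissue (118 in fruit to 143 in leaf). The flower also listed the most tags, and the part of this in its number of sequences was not tested.

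The flower profile was concentrated on few families. miR166, miR156 and miR168 together took 89.3% of its tags, and the 3 leading families took 88.9% in fruit, 79.5% in root, 69.1% in stem and 63.5% in leaf. The effective number of families, the exponential of the Shannon entropy of the family shares, was 4.30 in flower. The values were 8.40 for leaf, 6.96 for stem, 6.41 for root and 3.79 for fruit, so flower and fruit were the least even. Without miR166 the flower was the least even of the 5 at 3.74, and fruit stood at 5.92. Of the flower tags, 98.6% were 21 nt long and 0.385% were 22 nt long, whereas the 22 nt share was 0.945% in fruit, 4.39% in root, 5.32% in leaf and 10.2% in stem. Sequences that begin with U made up 96.6% of the flower tags and between 74.6% (leaf) and 93.6% (fruit) elsewhere. The share of tags that flower had in common with another tissue, as the sum over families of the smaller of both shares, was 73.7% for root, 69.7% for stem, 66.3% for fruit and 62.6% for leaf.

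**Figure D1:**
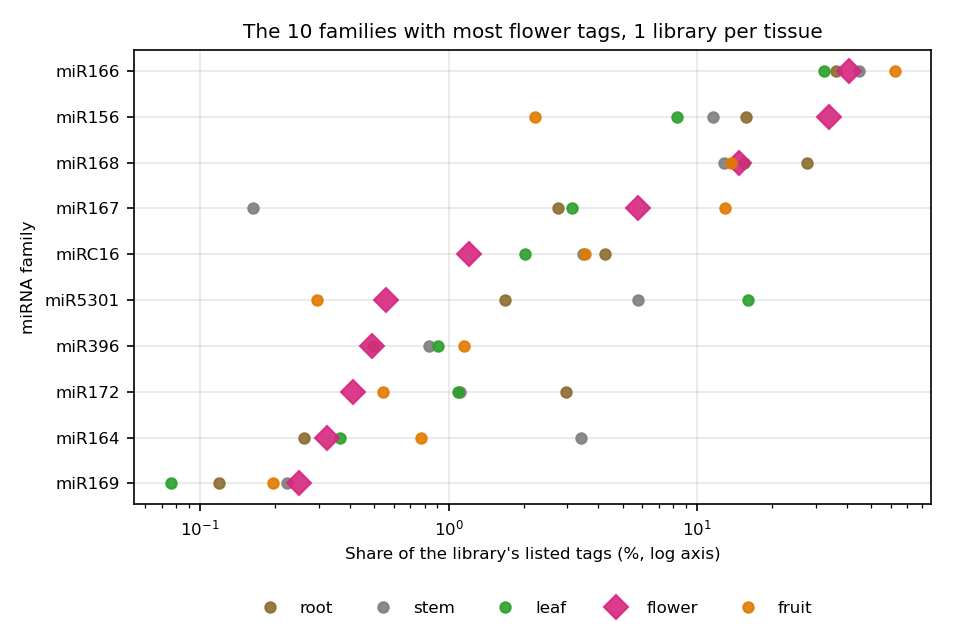
Share of each library's listed tags (percent, log axis) for the 10 families with most flower tags, with a diamond for flower and circles for the other tissues, 1 library each. miR156 lies to the right of every other tissue in flower at 34.0%, while miRC16 and miR172 lie to the left of all of them and miR396 lies level with root (0.492% and 0.497%).

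Over the 57 families with at least 10 tags in the 5 libraries, flower was compared with the mean of the 4 other tissues as log2((flower + 10)/(mean + 10)) of normalised tags. This scale understates the differences of low families. At least 4-fold higher in flower were 3 families (5.26% of those compared), the ones listed in flower alone, whose ratios rest on the pseudocount. At least 4-fold lower were 21 (36.8%), 13 with numbers and 8 candidates, among them 6 listed at 0 in flower. The nearest families below the upper threshold were miR160 at 1.97, miR394 at 1.95 and miR156 at 1.85, and the nearest inside the lower one miRC3 at -2.01 and outside it miR164 at -1.90. The median of all 57 families was -1.42, and 46 of them were below 0. Of the 57, 13 were listed at 0 in flower and could only fall below 0. The 3 listed in flower alone could only lie above 0. The median without these families was not computed. Median-of-ratios scaling, which centres the 31 families with tags in all 5 libraries, moved the median to -0.63. It gave 7 families higher (12.3%) and 12 lower (21.1%). The 4 added to the higher side were miR156 (3.19), miR160 (3.19), miRC13 (3.16) and miR394 (3.09). All 12 lower families were among the 21. The count of higher families was also 7 when leaf was left out of the mean and 5 when fruit was left out. Flower had the highest value of the 5 tissues in 7 families and the lowest in 17, and with median-of-ratios scaling in 14 and 7. The 7 were miR156, miR160, miR394, miR169, miR395, miRC18 and miRC5. miR166, miR168, miR390, miR159, miRC13, miRC27 and miR6149 were highest in flower with median-of-ratios scaling, and not with listed totals.

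**Figure D2:**
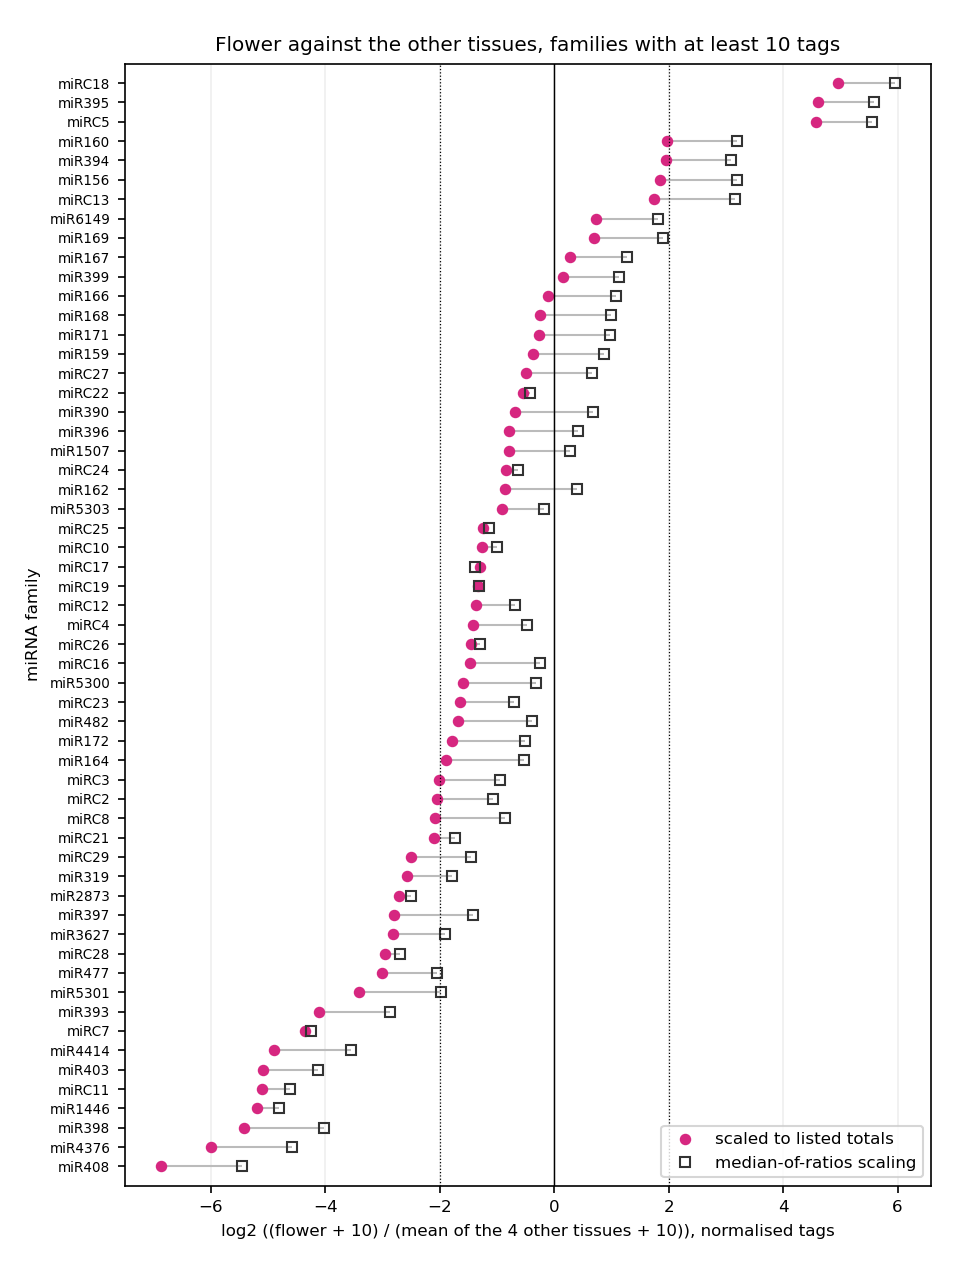
log2 ratio of flower to the mean of the 4 other tissues for the 57 families with at least 10 tags, with filled circles for scaling to listed totals and open squares for median-of-ratios scaling. Dotted lines mark 4-fold. Squares lie mostly to the right of circles, and 12 families are past the lower line on both scales.

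miR156 was the family that set the flower apart by amount. It took 34.0% of the flower tags (230630 tags), 15.7% in root (36277), 11.6% in stem (36830), 8.27% in leaf (44894) and 2.22% in fruit (6911). The flower share lay above all of the others, 2.17-fold over root (2.15 to 2.19), 2.94-fold over stem, 4.11-fold over leaf and 15.3-fold over fruit (14.95 to 15.7). Against the mean of the 4 other tissues the ratio was 3.60, and 9.13 with median-of-ratios scaling. In whole organs, more cells that hold a miRNA and more of it per cell cannot be told apart. Within the family 1 sequence held most of the tags. The form shared by miR156a, miR156b and miR156c had 218354 tags in flower, 32.2% of the library, and 16220 in root, 16334 in stem, 39988 in leaf and 2338 in fruit. It was the most abundant single sequence of the flower library, above the main miR166 form (185804 tags, 27.4%). In stem, leaf and fruit the main miR166 form led, and in root miR168a-5p led with 58289 tags. The miR156h-5p form took 0.977% of the flower tags against 0.753% in leaf, 1.19% in fruit, 2.52% in root and 4.74% in stem. The form of miR156d, miR156e and miR156f begins 1 base further in and so has another seed. It took 0.827% in flower, 6.13% in root, 1.67% in stem, 0.138% in leaf and 0.280% in fruit. With listed totals, neither this form nor the miR156h-5p form was highest in flower.

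Within the miR156 family the miR156a form therefore made up 94.7% of the flower tags (94.6 to 94.8), 89.1% in leaf, 44.7% in root, 44.3% in stem and 33.8% in fruit. A share within a family does not depend on the scaling of the libraries. Flower and leaf were also the highest when a tag was counted at every hairpin (96.5% and 94.9%). The miR156h form differed from it by the substitutions T12G, A15T and C21T, counted from 1 at the 5′ end, all outside the seed.

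miR172 was low in flower. It had 2795 flower tags or 0.412%, 0.543% in fruit (1690 tags), 1.09% in leaf (5906), 1.11% in stem (3525) and 2.98% in root (6889). Flower was the lowest of the 5, 1.32-fold below fruit (1.24 to 1.40) and 7.22-fold below root, but fruit was the lowest with median-of-ratios scaling or with totals without miR156. The form of miR172a to miR172d took 42.2% of the miR172 tags in flower (40.3 to 44.04), 49.3% in root, 71.8% in fruit, 81.3% in leaf and 82.7% in stem. The form of miR172e and miR172f, with the substitution T21G, took 28.2% in flower, 22.2% in fruit, 9.99% in stem, 0.677% in leaf and a listed 0% in root. The form of miR172h, with A1T, took 13.8% in flower and 47.7% in root. As a level the miR172e form was 1163 normalised tags in flower, 1207 in fruit and 1104 in stem. The miR172a form was at 1737 normalised tags in flower, 3895 in fruit and 14657 in root. The guide arm of miR172 held 84.7% of the flower tags (83.3 to 86.04), close to leaf (85.8%) and below stem (96.8%), fruit (96.6%) and root (99.5%). The age and flowering families miR156 and miR172 together held 34.4% of the flower tags (34.3 to 34.5), 18.6% in root, 12.7% in stem, 9.36% in leaf and 2.76% in fruit. The median log2 ratio of these 2 families was 0.03.

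The auxin families stood at different places in the flower. miR167 had 39075 flower tags or 5.76%, 12.9% in fruit (40262), 3.14% in leaf (17042), 2.76% in root (6393) and 0.164% in stem (522). The flower came second to fruit, 2.25-fold below it (2.21 to 2.28), and 35.2-fold above stem. The family lay above the mean of the other tissues at 1.21-fold, but below it with totals without miR166 (log2 of -0.17). miR160 was highest in flower, with 1223 tags or 1802 normalised tags against 730 in leaf (396 tags), 491 in fruit (153), 337 in root (78) and 257 in stem (82). Its lead over leaf, the next tissue, was 2.47-fold (2.20 to 2.77). Of these flower tags 1179 came from the miR160a 3′ arm, the passenger, and 44 from the guide arm. The guide alone had 64.8 normalised tags in flower, 45.0 in fruit (14 tags) and at most 9.41 elsewhere (2 to 4 tags each). Its flower and fruit values did not differ beyond counting error, at 1.44-fold (0.776 to 2.85), and fruit was higher with totals without miR166 (119 normalised tags against 109 in flower).

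miR390, which with AGO7 starts the cutting of the TAS3 transcript into small RNAs against auxin response factors, had 1535 tags in flower, 661 in root, 1949 in stem, 2388 in leaf and 393 in fruit. As a family it took 0.226% in flower, above fruit (0.126%) and below root (0.285%), leaf (0.440%) and stem (0.611%), and it was highest in flower with median-of-ratios scaling. Its 2 guide forms changed places. miR390a-5p had 1362 flower tags and miR390b-5p had 109, while in leaf they had 305 and 2032. miR390a-5p took 88.7% of the family in flower (87.04 to 90.3), 63.1% in root, 44.8% in stem, 32.1% in fruit and 12.8% in leaf. The forms differ by G19A and share the seed. The miR390a hairpin lies at chr9:136264496-136264603 on the minus strand (in a genome build that the sources used here do not name). miR393, whose guide acts on auxin receptor F-box mRNAs, had 24 tags in flower and 1586 in leaf, 23 and 1586 of them from the passenger arm. In root, stem and fruit it had 14, 11 and 20 tags. The distance of flower from the mean of the others rested on leaf, and without leaf the log2 ratio was -0.48. Of the 4 auxin families 1, miR393, was past the lower threshold, beside 36.8% of all families. The median of the 4 was -0.21, or 0.97 with median-of-ratios scaling.

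Among families of meristems and organ polarity, miR166 was the most abundant, with 40.7% of the flower tags, 32.2% in leaf, 36.2% in root, 44.7% in stem and 62.3% in fruit. Flower lay in the middle of the 5, and was highest with median-of-ratios scaling. Its main form held 67.3% of the family in flower, between stem (78.4%) and fruit (55.2%), and the form with C20T held most of the rest. miR394, whose target is an F-box gene that limits stem cell competence in Arabidopsis, was highest in flower with 228 tags or 336 normalised tags. It had 132 normalised tags in fruit (41 tags), 101 in leaf (55) and 84.7 in stem (27), and was listed at 0 in root. The lead over fruit was 2.55-fold (1.82 to 3.65). miR394b supplied 12 of the flower tags and was listed at 0 elsewhere. miR164 had 3227 normalised tags in flower, 2608 in root, 3655 in leaf, 7729 in fruit and 34186 in stem. In flower 91.5% of it was the miR164a form, near stem (89.0%), fruit (87.5%) and root (83.6%), and leaf stood apart at 32.0%. The miR164b form took 8.13% in flower and 67.3% in leaf. miR171, which acts on GRAS factors, had 1309 tags in flower and 1601 in root, 0.193% and 0.691%, and between 0.0735% and 0.0816% in the other tissues. Most of the flower tags (1055) were from the miR171c 5′ arm, which is the passenger. None of the 4 families was past a threshold, beside 36.8% of all families past the lower one and 5.26% past the upper. miR164 passed the lower one with totals without miR166 (log2 of -2.08) and with a tag counted at every hairpin (-2.02). The median of the 4 was -0.19, or 1.03 with median-of-ratios scaling, where miR394 was past the upper threshold.

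**Figure D3:**
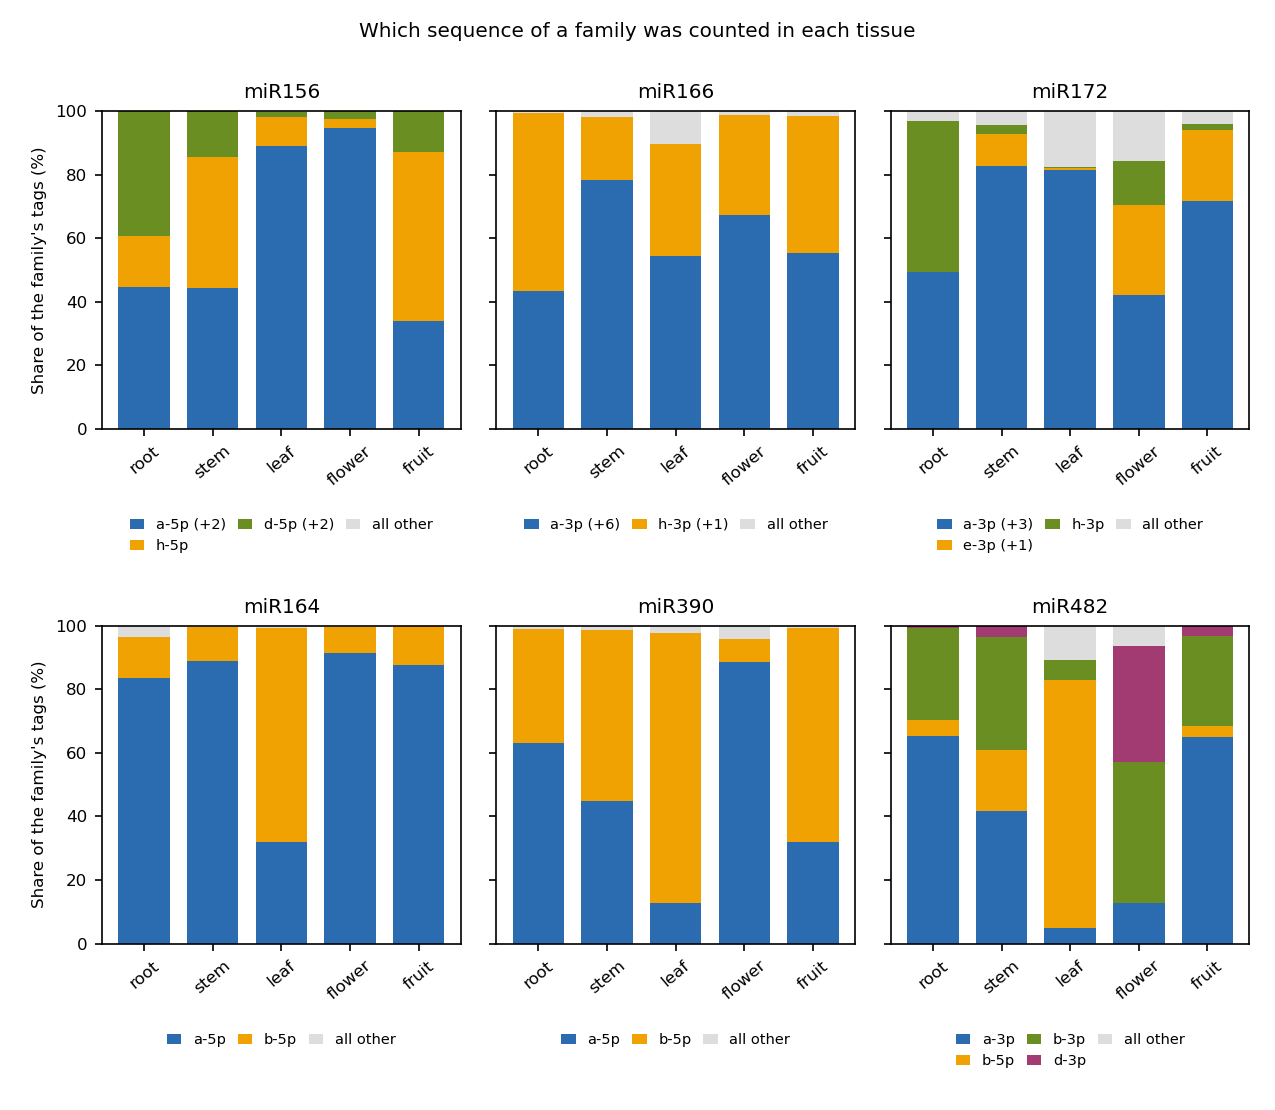
Share of each family's tags (percent) taken by its leading sequences in each tissue for 6 families. A label such as a-5p (+2) is a sequence that 2 further hairpins of the family also list. In flower the miR156a form takes 94.7%, miR390a-5p 88.7% and miR482d-3p 36.6%, each the highest of the 5 tissues.

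miR169 was listed in more forms in the flower than elsewhere. It had 1692 flower tags or 0.249%, 0.225% in stem (716 tags), 0.197% in fruit (614), 0.120% in root (277) and 0.0761% in leaf (413). The lead over stem was 1.11-fold (1.02 to 1.21), and fruit led when totals without miR166 were used for scaling (0.524% against 0.420% in flower). The guide, the 5′ arm, did not lead in flower: it had 1189 normalised tags there, 1236 in stem and 1294 in fruit. With median-of-ratios scaling the guide was highest in flower. Guide tags made up 47.7% of the family in flower and from 55.0% (stem) to 65.6% (fruit) elsewhere. Of the 15 distinct miR169 sequences, 14 had tags in flower, 6 in leaf, 3 in fruit and 2 each in root and stem. The flower library listed the most tags, and its part in the number of forms was not tested. The 9 that were listed in flower alone held 41 tags together, and miR169l supplied 835 tags from its 3′ arm and 732 from its 5′ arm. miR159 and miR396, which act on MYB and GRF factors, had 1202 and 4924 normalised tags in flower. The other tissues ranged from 1001 to 2362 for miR159 and from 4971 to 11522 for miR396. For miR396, flower and root did not differ beyond counting error, at 0.991-fold (0.926 to 1.06), and flower was not the lowest with median-of-ratios scaling or totals without miR166 or miR156. Both families moved above the mean of the others with median-of-ratios scaling. miR319, on TCP factors, had 6 flower tags, 73 in root, 22 in stem, 8 in fruit and a listed 0 in leaf. It was past the lower threshold, but not with median-of-ratios scaling (-1.79). All 6 flower tags (miR319b-5p) and 61 of the root tags (miR319c-5p) were from the 5′ arm. The 3′ arm, typed as guide, had at most 12 tags in a library (root). Its sequence shared by miR319a and miR319b had 8 tags each in stem and fruit and was listed at 0 in root, leaf and flower. The 12 root tags were thus of another 3′ sequence. The median of these 3 growth families was -0.78, or 0.42 with median-of-ratios scaling.

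The 3 families with at least 10 tags that were listed in flower alone were miR395, miRC18 and miRC5. miR395, which targets ATP sulfurylases and a sulfate transporter, had 159 tags in flower and was listed at 0 in root, stem, leaf and fruit. All were of 1 sequence that 10 hairpins share, so the hairpin of origin cannot be told. Of the 11 miR395 hairpins, 8 lie on chromosome 11 between 183111286 and 183685432 and 3 on the unplaced sequence Chr00. The candidate miRC18 had 204 flower tags, 191 from the 5′ arm and 13 from the 3′ arm. miRC5 had 154, 152 from the 5′ arm and 2 from the 3′ arm. Both were listed at 0 for the other libraries. Their hairpins are printed with the listed mature arms in capitals.
miRC18, chr9:237025638-237025768, plus strand: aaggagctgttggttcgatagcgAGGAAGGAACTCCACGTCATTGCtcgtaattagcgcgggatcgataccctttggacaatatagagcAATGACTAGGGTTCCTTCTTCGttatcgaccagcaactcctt
miRC5, chr1:288698498-288698684, minus strand: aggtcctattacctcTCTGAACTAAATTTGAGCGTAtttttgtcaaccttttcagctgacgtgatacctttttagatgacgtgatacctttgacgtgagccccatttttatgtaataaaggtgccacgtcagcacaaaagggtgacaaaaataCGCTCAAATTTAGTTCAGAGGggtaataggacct

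In the deposited structure of miRC5, all 21 bases of either arm were paired, and in miRC18 20 of 23 bases of the 5′ arm and 20 of 22 of the 3′ arm. The median over mature arms was 95.2% paired for candidates and 85.7% for numbered families. The functions of these candidates are not annotated. A value of 0 is called listed at 0, since only 1 total of 1 to 4 tags per hairpin and library occurs in the whole annotation, against 39 totals of 5 to 8 tags. A 0 can therefore not be told from a small count. The ratios of families listed at 0 in flower or in the other 4 tissues are set by the pseudocount of 10, so they are counted by threshold and given no size. The candidate miRC13 had 605 flower and 560 leaf tags, and 0 listed elsewhere.

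**Figure D4:**
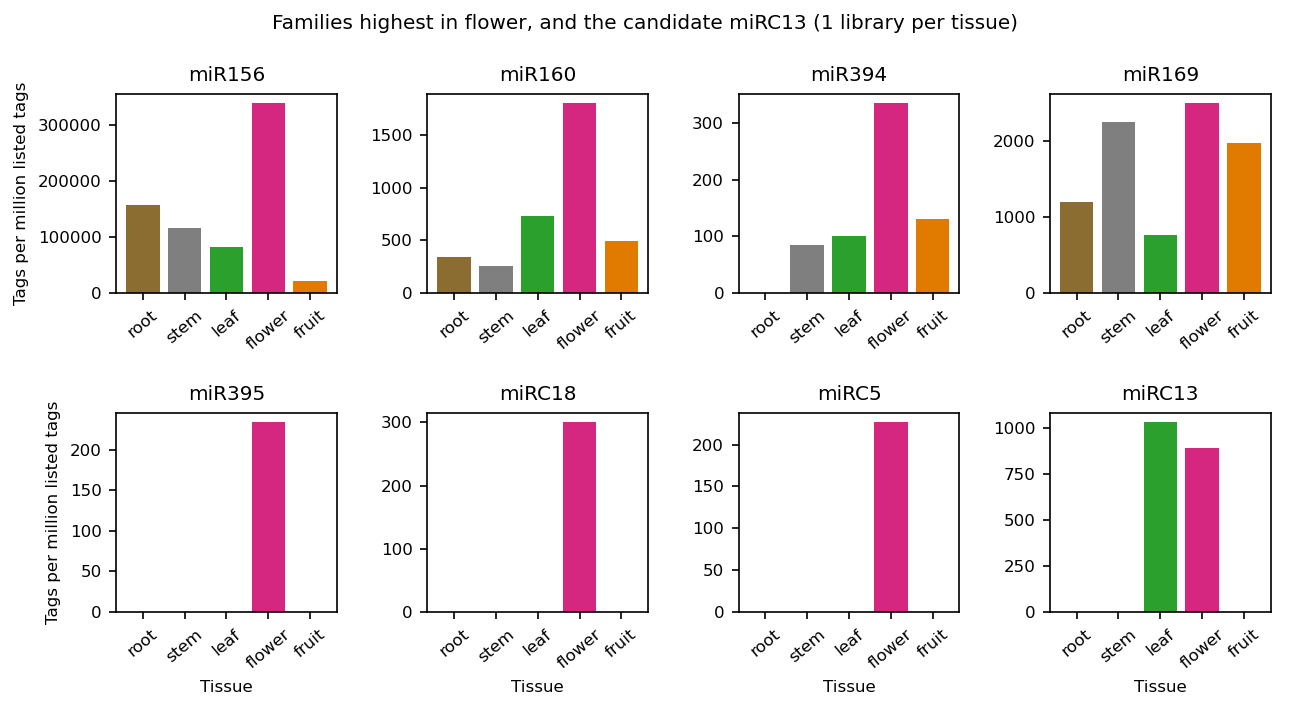
Normalised tags (per 1000000 listed tags, linear axes from 0 that differ between panels) of 7 families highest in flower and of the candidate miRC13, by tissue, 1 library each. miR395, miRC18 and miRC5 are at 0 outside flower, and miRC13 is shared by leaf and flower.

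Copper-related families stood at the low end of the flower profile. miR408, a regulator of copper proteins, had 139 tags in flower, 11 in root, 265 in fruit, 3277 in stem and 48090 in leaf. Its normalised value was 433-fold lower than in leaf (366 to 515) and 50.2-fold lower than in stem, but 4.31-fold higher than in root (2.34 to 8.84). miR398, which acts on copper/zinc superoxide dismutase, had 197 tags in flower, 702 in root, 5308 in stem, 15703 in leaf and 835 in fruit. Flower was the lowest tissue under all 6 ways of scaling and counting, 9.24-fold below fruit (7.90 to 10.8) and 99.7-fold below leaf. miR397, a laccase regulator, had 838 tags in flower, 1235 normalised tags against 1307 in fruit and 7371 to 16312 in the vegetative tissues. The flower and fruit values of miR397 did not differ beyond counting error, with fruit at 1.06-fold of flower (0.938 to 1.19), and flower was above fruit with median-of-ratios scaling. Most tags of miR408 and miR398 were passenger in every library: in flower 135 of 139 and 133 of 197. The guide arms of miR398 were still lowest in flower, at 94.3 normalised tags against 354 in root, 530 in fruit, 673 in leaf and 1273 in stem. The guide arm of miR408 had between 0 and 4 tags in each library, so its levels cannot be compared. Of the 5 listed nutrient and copper families 3 were past the lower threshold and 1, miR395, past the upper one. miR395 was listed in flower alone, so its ratio could only lie above 0. Over all families compared, the shares were 36.8% and 5.26%. With median-of-ratios scaling the list had 2 and 1, beside 21.1% and 12.3% of all families. The median of the list was -2.79, beside -1.42 over all families, or -1.43 beside -0.63 with median-of-ratios scaling. miR399, on phosphate balance, had 154 flower tags and 227 normalised tags, between leaf (157) and fruit (533). It was listed in 9 forms in flower, 8 in fruit, 6 in leaf and 1 each in root and stem.

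The families described from Solanaceae differed among themselves in flower. miR4376, whose known target in tomato is a calcium ATPase mRNA, had 456 flower tags, 1716 in fruit, 5404 in root, 27822 in leaf and 29928 in stem. The flower was lowest under all 6 ways of scaling and counting, 8.20-fold below fruit (7.39 to 9.11) and 140-fold below stem. Its flower tags were all of the 22 nt form of the 5′ arm, which took 0.0672% of the flower library and 9.39% of that of stem. miR5301 had 3793 flower tags or 0.559%, above the 0.296% in fruit and below 1.69% in root, 5.79% in stem and 15.95% in leaf. Its log2 ratio was -3.41, and -1.97 with median-of-ratios scaling. miR5303 had 6 flower tags. The log2 ratio of miR5303 was -0.91, above the median of all families. The list also holds miR5300, which is counted again among the NLR regulators below. Of the 4 listed Solanaceae families 2 were past the lower threshold, beside 36.8% of all families. With median-of-ratios scaling it was 1, beside 21.1%. Their median was -2.50, beside -1.42 over all families, or -1.14 beside -0.63 with median-of-ratios scaling. The list took 0.764% of the flower tags, 0.989% in fruit, 5.10% in root, 15.5% in stem and 21.2% in leaf.

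The small RNA pathway is itself under miRNA control. miR168, which acts on AGO1, took 14.6% of the flower tags, 12.8% in stem, 13.6% in fruit, 15.3% in leaf and 27.6% in root. Flower lay within the range of the other tissues, and above it with median-of-ratios scaling. Its main form held 89.6% of the family in flower and between 88.3% and 92.5% elsewhere. miR162, on DCL1, had 1705 normalised tags in flower, the lowest of the 5, and 5204 in root, and with median-of-ratios scaling it was above the mean of the others. miR403, on AGO2, had 7 tags in flower, all passenger, and none from the guide. Its guide was seen in stem (372 tags) and root (342), and listed at 0 for leaf and fruit. Of these 3 families 1, miR403, was past the lower threshold on both scales, beside 36.8% and 21.1% of all families. The median of the 3 was -0.85, or 0.40 with median-of-ratios scaling.

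Regulators of NLR resistance genes were at 0.270% of the flower tags, 0.353% in fruit, 0.497% in leaf, 0.712% in stem and 1.79% in root. None of the 3 listed families (miR482, miR5300 and miR1507) passed the lower threshold, beside 36.8% of all families. With a tag counted at every hairpin, miR482 passed it (log2 of -2.06). The median of the 3 was -1.59, or -0.32 with median-of-ratios scaling. miR482 had 887 flower tags, and its forms differed from those of other tissues. The miR482d 3′ form had 325 tags in flower, 39 in stem, 21 in fruit, 10 in root and 0 in leaf. It held 36.6% of the family in flower (33.5 to 39.9) and at most 3.59% elsewhere. Its level was 479 normalised tags in flower and at most 122 elsewhere. The miR482d 5′ form had 25 flower tags and 0 listed elsewhere. The miR482a 3′ form, the leading one in root, stem and fruit, held 12.6% in flower, where the miR482b 3′ form led with 44.4%. The miR482d-3p sequence differs from the miR482a and miR482b 3′ forms in the seed and also along the rest of its length, as the printed sequences show. Its place in the family follows the name of its hairpin, and its targets were not examined. miR5300 had 1369 normalised tags in flower, close to fruit (1400), above leaf (697) and below stem (3632) and root (10783).

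Among the other low families, miR4414 had 33 flower tags against 1728 in stem, 274 in leaf, 222 in root and 5 in fruit. miR1446 was listed at 0 in flower and fruit, with 494 tags in leaf and 69 each in root and stem. miR477 had 12 flower tags, all from miR477b-3p, and 194 in root, 5 in leaf and 0 in stem and fruit. Its place among the lower families rests on root: without root the log2 ratio was 1.08, with flower higher. Likewise miR393 without leaf was at -0.48, and miRC11 and miRC21 had tags in stem alone (427 and 42). Of the 21 lower families, 7 stayed past the threshold in all 13 alternative settings of scale, counting, pseudocount and tissues compared. These were miR408, miR4376, miR398, miR1446, miR403, miR4414 and miRC7. Of these, miR1446 and miRC7 were listed at 0 in flower, a value that no setting changes. Their place rests on the other tissues and the pseudocount. miRC7 had 97 tags in stem, 38 in leaf and 126 in fruit and was listed at 0 in flower and root. Among the candidates past the lower threshold, miRC8 had 221 flower tags and 326 normalised tags, and the other tissues ranged from 474 (leaf) to 2267 (root). miRC29 had 95.8 normalised tags in flower and between 176 and 1019 elsewhere. miRC3 and miRC2 had 19 and 12 flower tags, and their highest normalised values were in root (311 and 345). miR3627 had 8 flower tags and between 19 and 58 elsewhere. miR2873 and miRC28 were listed at 0 in flower and had 8 to 29 and 10 to 34 tags in each of the other tissues. None of miRC8, miRC29, miRC3, miRC2 and miR3627 stayed past the lower threshold with median-of-ratios scaling. The most abundant candidate, miRC16, had 8180 flower tags or 1.21%, the lowest of the 5 tissues, next to 2.03% in leaf, 3.47% in stem, 3.54% in fruit and 4.27% in root. Its log2 ratio was -1.46, and -0.25 with median-of-ratios scaling, where flower was not the lowest. Of the 23 candidates compared, 8 were past the lower and 2 past the upper threshold, beside 36.8% and 5.26% of all families. The 2 were miRC18 and miRC5, which were listed in flower alone, so their ratios could only lie above 0. The median of the candidates was -1.42, the same as over all families.

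Guide arms made up most of the flower tags. Over the 25 families whose guide arm is known from other plants, 98.3% of the flower tags came from the guide (98.2 to 98.3), 98.2% in fruit, 97.9% in root, 95.3% in stem and 78.6% in leaf. Without miR156 the flower value was 97.3%, below fruit at 98.1% and root at 97.4%. Counted by family, 10 of the 25 had most of their flower tags on the other arm: miR160, miR169, miR171, miR319, miR393, miR398, miR399, miR403, miR408 and miR1507. In these, except miR160, miR169 and miR171, the flower had at most 197 tags each. For miR160, miR171, miR393, miR398, miR399 and miR408 this was not particular to flower, as most tags were passenger in every library. miR169 had most tags on the passenger arm in flower alone.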

How the data were processed

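Small RNA of 5 pepper libraries was made from Trizol total RNA with an Illumina small RNA kit and sequenced on a HiSeq2000, per the labels' protocols, which name root samples as the RNA source for all tissues. The authors deposited 1 annotation of hairpins and mature arms, written by the plant setting of MIREAP per the file headers, with a whole-number tag count per tissue on each mature line. For the aligner, genome build, adapter trimming and library totals, the sources used here state nothing, so shares refer to listed tags. A sequence on several hairpins (36 sequences, 18 of them with differing counts) was taken at its highest count and counted 1 time per family, the family being the number in the parent hairpin's name.

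Tags were scaled per 1000000 listed tags. Families with at least 10 tags were compared as log2((flower + 10)/(mean of the others + 10)), and 4-fold was the threshold for a count. The text names the 10 families with most flower tags, families past the threshold, listed in flower alone or missing there alone, and the role lists; miRC13, miRC27, miR6149 and the minor forms within families were named after their values were seen. Median-of-ratios scaling used the 31 families with tags in all 5 libraries. Shares have exact Clopper-Pearson intervals and ratios of 2 libraries exact binomial ones, at 95%. Guide arms were typed from what is known of each family in other plants. Alternatives were other scalings, counting rules, minimums, pseudocounts and summaries of the other tissues, leaving out each tissue. The members, lists and rules were chosen with earlier results of these data known. Scripts were tested on simulated data and used Python 3.11.15, numpy 2.4.6, pandas 2.3.3, scipy 1.17.1 and matplotlib 3.10.9.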

Additional observations from a re-analysis of the deposited data

How the results depend on the processing

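With 1 library per tissue, no value has a replicate check, and the listed tags of annotated miRNAs stand in for unknown library totals. No paired analysis was possible because each tissue has 1 library and no replicate number. Median-of-ratios scaling gave 7 families higher and 12 lower in place of 3 and 21, a median log2 ratio of -0.63, and 14 families highest and 7 lowest in flower. Families higher numbered 7 with totals without miR156, 6 against the median of the other tissues, 7 without leaf and 5 without fruit. The median log2 ratio, -1.42 as reported, was -1.795 with totals without miR166, -1.291 without miR156, -1.431 at the lowest hairpin count, -1.075 for sums over all lines, -1.641 with a minimum of 50 tags, -1.373 with no minimum, -2.104 with a pseudocount of 1, -1.344 against pooled tissues and -0.7955 against their median. It was -1.032 without root, -1.443 without stem, -1.549 without leaf and -1.469 without fruit. The effective number of families was 3.742 without miR166, 4.364 at the lowest count and 3.011 for sums. The share of miR156 with miR172 was 57.98%, 35.44% and 28.62% in that order. The guide share was 98.2% at the lowest count and 99.37% for sums. Shares within families for sums were 96.54% for miR156a-5p, 88.01% for miR166a-3p (68.65% at the lowest count) and 66.23% for miR172a-3p. Dropping the 2 sequences that lie within a longer one gave -1.42, 4.291 families and 98.3% guide; this alternative and the within-family counts were chosen after seeing the data. miR477 reversed, to 0.9221 against the median of the others and 1.082 without root, where its tags were highest. Of the 24 families past 4-fold, 21 kept their direction in all 13 alternatives computed per family, miRC11 and miRC21 went to 0 where stem, the one tissue with their tags, was left out or out of the median, and 10 stayed past 4-fold. These 10 include miR1446 and miRC7, listed at 0 in flower, and miR395, miRC18 and miRC5, listed at 0 in the other tissues. No setting changes a listed 0, so the ratios of these families rest on the pseudocount. Causes of the other changes were not tested.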

Other observations

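Of the 205 sequences with a tag in any library, 23 were listed in flower alone, 14 of them with at least 5 tags and 4 with at least 20. The 4 were miRC18-5p with 191 tags, the shared miR395 sequence with 159, miRC5-5p with 152 and miR482d-5p with 25. Of the 23, 9 were miR169 forms with 41 tags together. A listed 0 in the other tissues cannot be told from a small count. The flower library listed the most tags, and its part in these counts was not tested. In the other direction 58 sequences had tags elsewhere and were listed at 0 in flower, 25 of them with at least 20 tags. Among these were miR482b-5p, the passenger of the form that leads miR482 in flower, with 1798 tags in leaf, and miR397a-3p, the passenger of the laccase regulator, with 2238 in leaf. The families miR2873 and miRC28 had tags in root, stem, leaf and fruit and were listed at 0 in flower.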
